A study of Mus musculus with 55 samples.

Results

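The long intergenic noncoding RNAs (lincRNAs) described here are the 217 genes that carry the biotype lincRNA in either of the RNA-seq tables deposited for mouse liver, other than H19 and Meg3. They were 217 of the 4113 genes in those tables. The table for TCPOBOP-treated Setd8-LKO livers held 208 of them among 3900 genes, the table for TCPOBOP-treated wild type livers held 43 among 719 genes, and 34 were in both. Each table lists only genes that the authors selected as differing from untreated wild type livers, so the members were chosen partly by the contrasts described below, and 5631 of the 5854 lincRNA genes annotated in GENCODE M21 were in neither table.

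LincRNAs are transcribed by RNA polymerase II from promoters of their own between protein-coding genes and are capped, and many are spliced and kept in the nucleus. They are known for low levels and for strong restriction to a tissue or a cell state. A few have described roles: Neat1 is the scaffold of nuclear paraspeckles, Trp53cor1 (lincRNA-p21) is a p53 target beside Cdkn1a, Pvt1 lies beside Myc, and the Snhg genes carry small nucleolar RNAs in their introns.

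RNA was measured in whole liver of mice aged 45 to 50 days. The groups were 5 libraries of wild type mice labelled untreated (WT untreated), 5 of wild type mice 24 h after intraperitoneal TCPOBOP at 3 mg/kg (WT + TCPOBOP) and 4 of Setd8-LKO mice given the same treatment (Setd8-LKO + TCPOBOP). TCPOBOP is an agonist of the nuclear receptor CAR that drives hepatocytes to divide. Setd8-LKO mice carry floxed Setd8 (Kmt5a) alleles deleted by Alb-Cre, and the study describes the loss as specific to hepatocytes. The state of the gene in other liver cells was not examined here. Genotype and treatment change together between Setd8-LKO + TCPOBOP and WT untreated, and there was no untreated Setd8-LKO group. ChIP-seq, CUT&Tag and ATAC-seq gave 1 list of peaks or islands per group, for WT untreated and Setd8-LKO + TCPOBOP only.

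Several facts of the series touch every value below. Kmt5a, the targeted gene, had 563 to 761 normalized counts in WT untreated and 1313 to 1465 in the libraries labelled Setd8-LKO, which is higher and not lower (log2 fold change 1.08, SE 0.14), and these gene totals cannot show a deleted exon. The libraries came from 2 sequencing runs, A (WT untreated 3 to 5, WT + TCPOBOP 1 to 3, Setd8-LKO 4) and B (the others). Of 7 hepatocyte markers 5 were listed, all lower in Setd8-LKO + TCPOBOP (summed normalized counts 1125513 to 1825692 in WT untreated, 458896 to 654526 after). Higher were 3 of 4 cholangiocyte markers (147 to 197, then 358 to 823). Of 5 stellate and fibroblast markers 3 were listed, all higher (1947 to 2951, then 4813 to 11108). The 4 proliferation markers were higher too (57 to 179, then 1426 to 2322). None of 6 macrophage and 4 endothelial markers was listed. The listed neutrophil (2 of 4) and lymphocyte (1 of 6) markers were not called. Of 3 erythroid markers only Alas2 was listed, and it was called lower (1694 to 3148, then 182 to 443). The part of these shifts in the lincRNA values was not tested, and in bulk tissue fewer cells of a type and less RNA per cell cannot be told apart. In WT + TCPOBOP no hepatocyte marker was listed, the stellate marker Lrat was called lower (268 to 389, then 113 to 166), and the 4 CAR response genes summed to 166 to 653 before and 71523 to 86126 after treatment.

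The stretches that open some of the lincRNAs whose start sites gained peaks or whose RNA went opposite ways are shown first. Each runs 5′ to 3′ from 250 bases before to 50 bases after the gene start on the GRCm38 assembly, read from the RefSeq copy of that assembly at the coordinates of the tables. Capitals mark, on either strand, the TATA box written as TATAAA, the CCAAT box, the letters AGGTCA that nuclear receptors recognise, and the letters TTTGAA, and no capital letters are shared by 2 motifs. The start of 9230116L04Rik and that of Gm26747 had H3K27ac and ATAC peaks only in the Setd8-LKO + TCPOBOP lists, that of Trp53cor1 gained H3K27ac, and Gm32468 changed in opposite directions in the treated groups.
9230116L04Rik, chr12:79103890-79104189, minus strand: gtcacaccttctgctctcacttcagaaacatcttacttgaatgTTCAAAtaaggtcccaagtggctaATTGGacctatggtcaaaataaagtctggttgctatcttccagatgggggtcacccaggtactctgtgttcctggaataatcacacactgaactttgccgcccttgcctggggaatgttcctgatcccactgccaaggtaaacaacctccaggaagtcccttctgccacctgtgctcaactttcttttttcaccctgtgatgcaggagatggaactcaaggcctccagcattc
Gm26747, chr8:121420988-121421287, plus strand: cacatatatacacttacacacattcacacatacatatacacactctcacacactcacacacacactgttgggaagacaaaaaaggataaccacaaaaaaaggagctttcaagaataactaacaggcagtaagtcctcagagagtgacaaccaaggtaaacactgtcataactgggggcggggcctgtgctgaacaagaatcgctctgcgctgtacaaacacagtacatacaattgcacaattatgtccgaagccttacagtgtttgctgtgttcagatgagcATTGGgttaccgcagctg
Trp53cor1, chr17:29079130-29079429, minus strand: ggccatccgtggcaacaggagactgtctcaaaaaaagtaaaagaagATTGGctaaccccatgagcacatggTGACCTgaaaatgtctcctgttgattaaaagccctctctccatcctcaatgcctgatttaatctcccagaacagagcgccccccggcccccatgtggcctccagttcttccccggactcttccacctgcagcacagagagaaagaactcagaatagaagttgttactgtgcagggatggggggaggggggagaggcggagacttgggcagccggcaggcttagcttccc
Gm32468, chr10:93083956-93084255, plus strand: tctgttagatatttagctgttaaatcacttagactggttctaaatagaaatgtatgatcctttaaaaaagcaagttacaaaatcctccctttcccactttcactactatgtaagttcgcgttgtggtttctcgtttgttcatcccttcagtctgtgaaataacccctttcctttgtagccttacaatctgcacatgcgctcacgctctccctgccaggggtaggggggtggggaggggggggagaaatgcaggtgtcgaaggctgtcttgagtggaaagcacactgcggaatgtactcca
The letters differ widely between these 4 windows, with 1 CG dinucleotide in the window of 9230116L04Rik and 7 in that of Gm32468, and no motif was found in the window of Gm32468. A match is a description of letters only.

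In Setd8-LKO + TCPOBOP against WT untreated, the listed lincRNAs split evenly: 104 were higher by mean and 104 lower. The fit tested 188 of the 208, and its filter on counts per library left out 20. It called 77 higher and 75 lower at an adjusted p under 0.05 and a change of at least 2-fold (edgeR quasi-likelihood test, adjusted over all 55450 annotated genes). These 152 are 152 of 188, beside 85.1% called of all 3723 listed genes tested, with 50.5% called higher and 34.6% lower. The table was selected on these same libraries, so the counts describe the list and nothing is read from them. The median log2 fold change was 2.57 over the lincRNAs called higher and -1.94 over those called lower, beside 1.86 and -1.63 over all genes called. In 155 tested members the 2 groups of libraries did not overlap (80 higher, 75 lower), beside 86.9% of all genes tested. All 152 called members had the same direction in each of the runs. In 148 of them the groups did not overlap, which fixes that direction beforehand, and run A held only library 4 of Setd8-LKO + TCPOBOP. The split moved with 1 of the 2 other scalings. DESeq2 size factors computed on the listed genes moved the mean scaling of treated against untreated libraries by -0.83 on the log2 scale. With them 42 lincRNAs were called higher and 96 lower. TMM factors, which moved that scaling by -0.01, called 83 higher and 81 lower.

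The largest rises belonged to lincRNAs that were almost silent in untreated liver. Gm28078 (ENSMUSG00000101342, chromosome 7, 37119993 to 37128692, minus strand, GRCm38) had 1, 0, 0, 0 and 0 normalized counts in WT untreated and 176, 160, 265 and 170 in Setd8-LKO + TCPOBOP. Every treated library was far above every untreated one. The untreated libraries held 1 read in all, and the ratio of the groups was 889 with a 95% counting interval of 159 to 35200 (adjusted p = 3.15e-06 by edgeR). Gm28076 lies nearby on the same strand (37137011 to 37140382) and had 1, 0, 2, 0 and 1 against 57, 83, 93 and 48 normalized counts. It rose by 6.16 on the log2 scale (SE 0.51). No assay had a peak or an island at the start of either gene in any list.

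Gm5420 on chromosome 10 had 1, 3, 0, 0 and 0 normalized counts in WT untreated and 43, 36, 38 and 84 in Setd8-LKO + TCPOBOP. The groups were well apart, with library 4, the only treated library of run A, the highest. The ratio of the group counts was 75.2 with a counting interval of 25.4 to 367. Its start had an ATAC peak in both lists (fold enrichment 8.02 and 8.33) and an H3K27ac peak only in the Setd8-LKO + TCPOBOP list (8.83).

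Gm49959 and Gm49958 lie on the minus strand of chromosome 17, inside the plus-strand gene Airn, the imprinted antisense RNA of the Igf2r locus. Gm49959 had 3, 0, 1, 0 and 1 normalized counts in WT untreated and 37, 60, 62 and 15 in Setd8-LKO + TCPOBOP (log2 fold change 5.18, SE 0.67). Gm49958 had 1, 3, 3, 1 and 0 against 43, 51, 63 and 23 (4.79, SE 0.51). Library 4 was the lowest treated library for both and still above every untreated one. Airn itself rose by 2.66 on the log2 scale. Whether the counting used strand is not stated, so reads of these genes and of Airn cannot be told apart.

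The next in order was Gm50410, with 1, 0, 2, 3 and 1 normalized counts in WT untreated and 35, 38, 54 and 32 in Setd8-LKO + TCPOBOP (log2 fold change 4.61, SE 0.44). It starts 76408 bp from the start of Prelid2, a gene of the mitochondrial lipid transfer family on the same strand that rose by 6.65, and the gene bodies are 766 bp apart. 2310034O05Rik followed with 2, 4, 5, 3 and 1 against 78, 63, 20 and 130 normalized counts (4.52, SE 0.57). Both groups of libraries were apart in each of these genes, though the treated libraries of 2310034O05Rik spread widely.

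Gm27000, a gene without introns on chromosome X, had 15, 6, 6, 6 and 6 normalized counts in WT untreated and 208, 301, 37 and 62 in Setd8-LKO + TCPOBOP (log2 fold change 4.26, SE 0.64). Its 842 bases are 99.9% identical to Meg3, the imprinted noncoding RNA of chromosome 12 that the table also lists. Meg3 had 34 to 95 normalized counts in WT untreated and 1609, 1972, 245 and 755 in the Setd8-LKO + TCPOBOP libraries, and libraries 1 and 2 were the highest for both genes. The counts of Gm27000 are therefore uncertain. The pair below shows 100 bases around the single difference (in capitals), which is why reads of one gene can be placed on the other.
Gm27000, chrX:88760071-88760170, minus strand: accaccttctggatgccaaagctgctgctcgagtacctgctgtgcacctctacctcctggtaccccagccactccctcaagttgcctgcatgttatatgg
Meg3, chr12:109543747-109543846, plus strand: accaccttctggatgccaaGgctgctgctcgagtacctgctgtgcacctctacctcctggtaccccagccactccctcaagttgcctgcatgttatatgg

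Gm29685 on chromosome 10 was the only member without a count in any untreated library. It had 45, 46, 29 and 3 normalized counts in Setd8-LKO + TCPOBOP, with library 4 close to 0. Against 3 counts over the untreated group, the floor that a count of 0 allows, it was at least 48.1-fold higher. That figure covers counting error only, and the gene did not pass the fit's filter on counts per library.

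**Figure D1:**
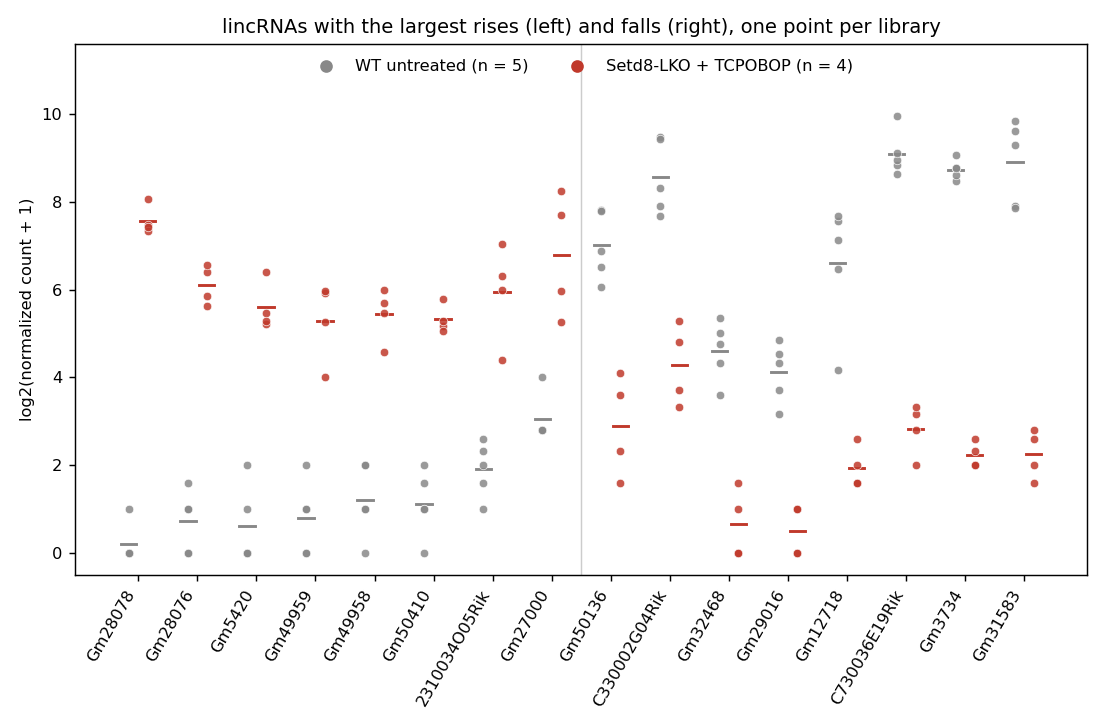
Log2(normalized count + 1) of the 8 lincRNAs with the largest rises and the 8 with the largest falls called in Setd8-LKO + TCPOBOP against WT untreated; each point is 1 library and each bar the mean of its group (grey, WT untreated, n = 5; red, Setd8-LKO + TCPOBOP, n = 4). The groups are apart for all 16 genes, and the spread within the untreated group is widest for Gm12718, whose library 4 had 17 normalized counts.

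Of the 8 largest falls, 6 were of lincRNAs above the median level of these lincRNAs per kilobase in untreated liver with means over 100 normalized counts, and the others, Gm29016 and Gm32468, started low. Gm31583 (ENSMUSG00000115919, chromosome 16, 24085083 to 24090089, minus strand) had 915, 628, 239, 782 and 233 normalized counts in WT untreated and 5, 2, 6 and 3 in Setd8-LKO + TCPOBOP. The lowest untreated library was still far above the highest treated one. It fell by 7.05 on the log2 scale (SE 0.60, edgeR adjusted p = 3.43e-05), and at its start the H3K27ac peak went from a fold enrichment of 20.8 to 6.45 while the ATAC peak was 5.80 and 6.95.

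Gm3734 was the steadiest of these genes among untreated libraries, with 433, 534, 357, 389 and 433 normalized counts, and had 5, 4, 3 and 3 in Setd8-LKO + TCPOBOP (log2 fold change -6.80, SE 0.27). C730036E19Rik on chromosome 1 had 456, 495, 549, 992 and 397 against 6, 3, 8 and 9 (-6.41, SE 0.41). The pseudogene Gm8941 lies 254 bp from it on the same strand and fell by 6.74. Gm12718 had 88, 140, 188, 17 and 204 against 5, 2, 2 and 3 (-5.38, SE 0.74). In all 3 genes the groups did not overlap.

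Gm29016 and Gm32468 fell from low levels to almost nothing. Gm29016 had 28, 19, 12, 22 and 8 normalized counts in WT untreated and 1, 1, 0 and 0 in Setd8-LKO + TCPOBOP, where the treated libraries held 2 reads in all. The ratio of the groups was 0.0223 with a counting interval of 0.00265 to 0.0831. C330002G04Rik and Gm50136 overlap on opposite strands of chromosome 19 and fell side by side. C330002G04Rik had 237, 204, 710, 318 and 686 against 27, 9, 38 and 12 (-4.32, SE 0.58) and Gm50136 had 66, 90, 225, 116 and 222 against 16, 2, 11 and 4 (-4.05, SE 0.58). In both genes untreated libraries 3 and 5 were the highest. Without a stated strand the overlap leaves it unknown which gene the reads from shared bases came from.

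The lists of named noncoding RNAs held 6 members, and all 6 were called higher in Setd8-LKO + TCPOBOP, where 50.5% of all listed genes tested were called higher and the table had been selected for change. With DESeq2 size factors 3 of the 6 were no longer called (Neat1 at 0.47, Pvt1 at 0.65 and Snhg10 at 1.24 on the log2 scale), and with TMM all 6 were. Neat1, the paraspeckle scaffold, had 5556, 5377, 4704, 4442 and 3094 normalized counts in WT untreated and 8837, 10830, 14023 and 10540 after (log2 fold change 1.25, SE 0.21). Pvt1 had 83, 101, 77, 107 and 50 against 217, 259, 226 and 226 (1.47, SE 0.22). Trp53cor1 had 1, 3, 6, 2 and 3 against 24, 40, 29 and 42 (3.42, SE 0.39). None of these groups overlapped, and Trp53cor1 changed the most from the lowest start.

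The other 3 were hosts of small nucleolar RNAs. Snhg10 had 10, 5, 4, 8 and 8 normalized counts in WT untreated and 21, 27, 37 and 28 in Setd8-LKO + TCPOBOP (log2 fold change 2.01, SE 0.30). Snhg15 had 24, 34, 40, 50 and 24 against 118, 147, 151 and 158 (2.05, SE 0.25), and Snhg18 had 15, 21, 22, 22 and 25 against 125, 114, 76 and 115 (2.35, SE 0.24). Every treated library was above every untreated one in all 3. Further genes of these lists (Snhg1, Snhg5, Snhg11, Snhg16, Mir100hg, Airn and Rian) were in the table under other biotypes and are not members.

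Per kilobase of exon, the lincRNAs of this table had a median of 18.6 normalized counts in WT untreated and 23.9 in Setd8-LKO + TCPOBOP, beside 18.9 and 38.1 for the listed protein-coding genes. The highest level per kilobase was that of 4930578N18Rik on chromosome 16, with 607, 609, 961, 856 and 1249 normalized counts in WT untreated and 2585, 2307, 2999 and 2826 after. Its level went from 922 to 2880 per kilobase (log2 fold change 1.65, SE 0.22), with no overlap of the groups. Gm50237 went from 2650 to 954, Gm48952 from 1470 to 567, Gm49980 from 457 to 1950 and Gm44148 from 585 to 1550 per kilobase, all called. Neat1 has more reads than most members, but over its 20771 exon bases its level was 223 and 532 per kilobase.

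D130009I18Rik and Gm19951, among the most abundant lincRNAs, differed more between the sequencing runs than between the groups. D130009I18Rik (chromosome 14) had 412 and 1054 normalized counts in the WT untreated libraries of run B and 16769, 14755 and 10283 in those of run A. In Setd8-LKO + TCPOBOP it had 884, 426 and 476 in run B and 8771 in run A. The groups overlapped, and the log2 fold change was -1.71 with an SE of 1.18 over both runs, -0.67 within run A and -0.30 within run B. Gm19951 on chromosome 12 behaved alike, with 178 and 351 against 5344, 4647 and 2999 in WT untreated and 230, 133 and 153 against 2818 in Setd8-LKO + TCPOBOP, and a log2 difference of -0.62 within either run. Gm26820 had 49 and 21 against 155, 143 and 149, then 9, 4 and 10 against 117. It also separated by run, by 2.06 on the log2 scale among untreated libraries, but within run B its groups were apart with a log2 difference of -2.05, beside -0.35 within run A. None of the 3 passed the test. In all, 32 of 188 tested members were at least 2-fold higher in the run A than in the run B untreated libraries, and 7 the other way. The same count was not made over all listed genes, so it does not set the lincRNAs apart. D130009I18Rik and Gm19951 hold much of the difference in summed lincRNA counts, which were 30675 and 32638 in the untreated libraries of run B and 45601 to 57158 in those of run A.

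**Figure D2:**
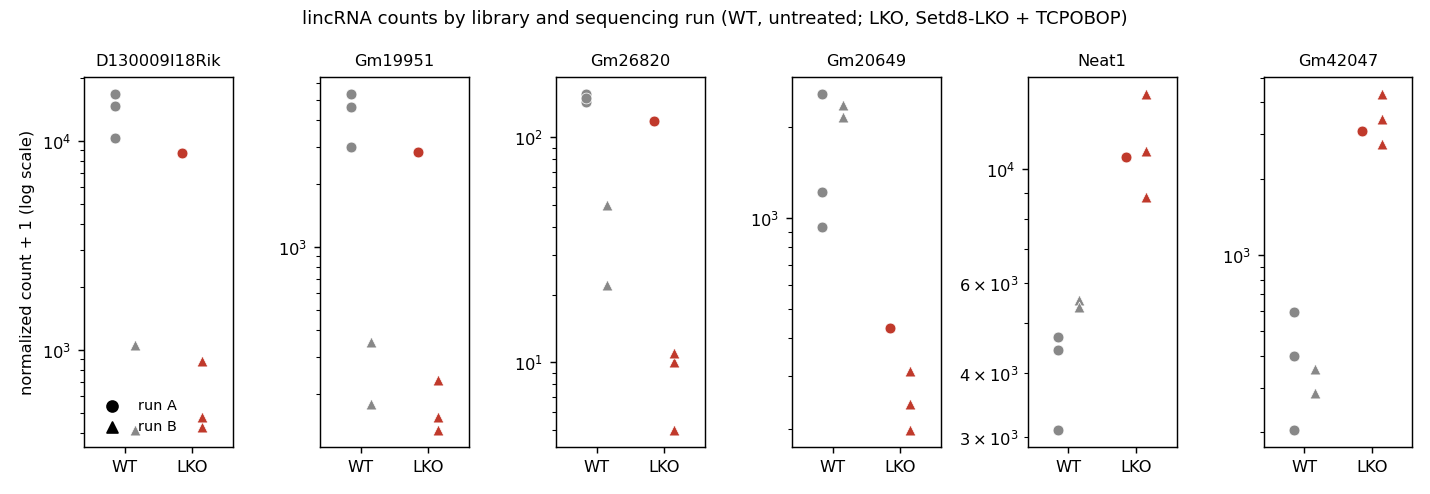
Normalized count + 1 (log axis, its range set per gene) of 6 lincRNAs in each library, with circles for run A and triangles for run B; grey is WT untreated (n = 5) and red Setd8-LKO + TCPOBOP (n = 4). D130009I18Rik, Gm19951 and Gm26820 separate by run within both groups, while Gm20649, Neat1 and Gm42047 separate by group in both runs.

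Gm48199 could not be fitted in this contrast and shows the same limit. It had 5, 9, 309, 30 and 243 normalized counts in WT untreated and 4, 1, 2 and 3 in Setd8-LKO + TCPOBOP, so the groups did not overlap, while the untreated libraries of run A were 30, 243 and 309 and those of run B 5 and 9. In WT + TCPOBOP it had 17, 23, 15, 6 and 4, and the groups overlapped.

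In WT + TCPOBOP against WT untreated, 24 of the 43 listed lincRNAs were higher by mean and 19 lower. The fit tested 40 and called 20 higher and 10 lower. The 30 called stand beside 67.6% called of all 679 listed genes tested, 51.4% higher and 16.2% lower, again with the table selected on these libraries. In 35 tested members the groups did not overlap (22 higher, 13 lower), beside 82.0% of all genes tested. The median log2 fold change was 2.22 over the members called higher and -2.38 over those called lower. All 30 had the same direction within each run, but in all 30 the groups did not overlap, which fixes that direction beforehand. DESeq2 size factors or TMM on the listed genes moved the mean scaling of treated against untreated libraries by -1.18 and -1.26 (log2). Each then called 5 higher and 17 lower. The number called lower also rested on single libraries: it was 4 without WT + TCPOBOP library 3, 5 without library 1 or 4 and 6 without library 5, and 6 without WT untreated library 1, 2, 3 or 5.

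The lincRNAs with the largest rises after TCPOBOP alone were again nearly silent before it. Gm33525 (chromosome 14) had 1, 0, 0, 0 and 0 normalized counts in WT untreated and 31, 37, 26, 22 and 30 in WT + TCPOBOP. The groups were far apart, with a ratio of 136 and a counting interval of 23.9 to 5410. Gm5444 (chromosome 13) had 4, 0, 2, 4 and 2 against 46, 57, 64, 39 and 51 (log2 fold change 4.24, SE 0.42). In Setd8-LKO + TCPOBOP, Gm33525 had 0, 5, 11 and 5 and Gm5444 had 2, 4, 20 and 10, and both groups overlapped the untreated one.

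3 lincRNAs rose strongly in both treated groups. 9230116L04Rik (chromosome 12, 79088705 to 79103939, minus strand) had 7, 4, 10, 8 and 16 normalized counts in WT untreated, 133, 152, 154, 135 and 196 in WT + TCPOBOP and 178, 186, 130 and 168 in Setd8-LKO + TCPOBOP. The treated groups overlapped each other and neither overlapped the untreated one (log2 fold changes 4.06, SE 0.32, and 4.17, SE 0.32). Gm26747 (chromosome 8) had 7, 8, 26, 11 and 35, then 382, 137, 307, 314 and 259, and 146, 171, 219 and 254 (3.98, SE 0.48, and 3.48, SE 0.44). Gm13021 (chromosome 4) had 19, 21, 29, 42 and 29, then 318, 401, 354, 525 and 418, and 149, 167, 244 and 198, and here every WT + TCPOBOP library was above every Setd8-LKO + TCPOBOP library. At 991 normalized counts per kilobase in WT + TCPOBOP it was among the highest members.

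The largest fall after TCPOBOP alone was that of Gm3734, with 10, 15, 6, 7 and 18 normalized counts in WT + TCPOBOP against 357 to 534 in WT untreated (log2 fold change -5.21, SE 0.32). Gm36041 (chromosome 10) had 116, 233, 143, 31 and 175 in WT untreated and 2, 5, 4, 15 and 16 in WT + TCPOBOP (-4.01, SE 0.61). A630031M04Rik (chromosome 4) had 58, 83, 19, 30 and 33 against 4, 9, 8, 6 and 0 (-3.08, SE 0.60). The groups were apart in all 3 genes, and all 3 were also called lower in Setd8-LKO + TCPOBOP.

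Of the other genes on the lists of named noncoding RNAs, Snhg10 was called higher in WT + TCPOBOP, with 57, 30, 33, 28 and 32 normalized counts (log2 fold change 2.36, SE 0.31). Pvt1 had 182, 154, 153, 201 and 216, every one above the untreated libraries, and did not pass the test (1.11, SE 0.24, edgeR adjusted p = 0.0666), and its sign turned under DESeq2 (-0.05) and TMM (-0.14) scaling.

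The treated groups were compared directly over the 506 genes in both tables, 34 of them lincRNAs. This fit of all 3 groups was chosen after the data had been seen and was adjusted over those 506 genes. It called 2 lincRNAs higher and 18 lower in Setd8-LKO + TCPOBOP than in WT + TCPOBOP, which are 20 of 34, beside 44.9% called of the 506 genes, 17.6% higher and 27.3% lower. The 2 higher were Gm50321 (log2 difference 1.95, SE 0.27) and 1700001L05Rik (1.00, SE 0.24). Genotype is the labelled difference between these groups.

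4 lincRNAs were called higher in WT + TCPOBOP and lower in Setd8-LKO + TCPOBOP, each against WT untreated. Gm32468 (chromosome 10, 93084206 to 93093727, plus strand) had 31, 26, 11, 40 and 19 normalized counts in WT untreated, between 572 and 795 in WT + TCPOBOP libraries 1 to 3, 89 and 103 in libraries 4 and 5, and 0, 0, 2 and 1 in Setd8-LKO + TCPOBOP. No 2 of the 3 groups overlapped, and within WT + TCPOBOP the libraries of run A (1 to 3) were above those of run B (4 and 5). The log2 fold changes were 4.06 (SE 0.67) and -4.83 (SE 0.67), and the difference between the treated groups was -8.88 (SE 0.98, edgeR adjusted p = 2.01e-06). Within runs the rise in WT + TCPOBOP was 4.74 in A and 1.72 in B.

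Gm34777 and Gm48884 overlap on opposite strands of chromosome 10 near 99233117. Gm34777 had 54, 41, 42, 28 and 37 normalized counts in WT untreated, 165, 120, 154, 120 and 86 in WT + TCPOBOP and 14, 9, 11 and 9 in Setd8-LKO + TCPOBOP. Gm48884 had 35, 34, 31, 20 and 25, then 120, 70, 109, 70 and 49, and 8, 8, 7 and 6. In both genes the order of the groups was the same with no overlap, and the treated groups differed by -3.59 (SE 0.30) and -3.54 (SE 0.33) on the log2 scale. 2310015A16Rik (chromosome 17, 31907879 to 31909029, minus strand) had 41, 49, 36, 34 and 75, then 206, 184, 194, 128 and 131, and 18, 19, 12 and 21, a difference of -3.25 (SE 0.31). Under DESeq2 scaling the rises of Gm34777, Gm48884 and 2310015A16Rik in WT + TCPOBOP shrank to 0.48, 0.33 and 0.65 and that of Gm32468 to 2.90, and none of the 4 passed the test.

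Gm31583 fell in both treated groups, but by unequal amounts. It had 157, 172, 144, 86 and 135 normalized counts in WT + TCPOBOP and 2 to 6 in Setd8-LKO + TCPOBOP, and the treated groups differed by -5.04 (SE 0.52). Gm40787, Gm35665 and 9030616G12Rik were lower in Setd8-LKO + TCPOBOP by -2.67, -2.60 and -1.98. Gm50321 rose in both, with 19, 28, 21, 21 and 22 in WT + TCPOBOP and 82, 88, 99 and 76 in Setd8-LKO + TCPOBOP, from 3 to 10 in WT untreated. The difference between the treated groups missed the test for 14 of the 34, among them 9230116L04Rik (0.10, SE 0.26), Gm48236 (0.22, SE 0.24) and Gm41168 (0.07, SE 0.27), and a missed test does not show equal levels.

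**Figure D3:**
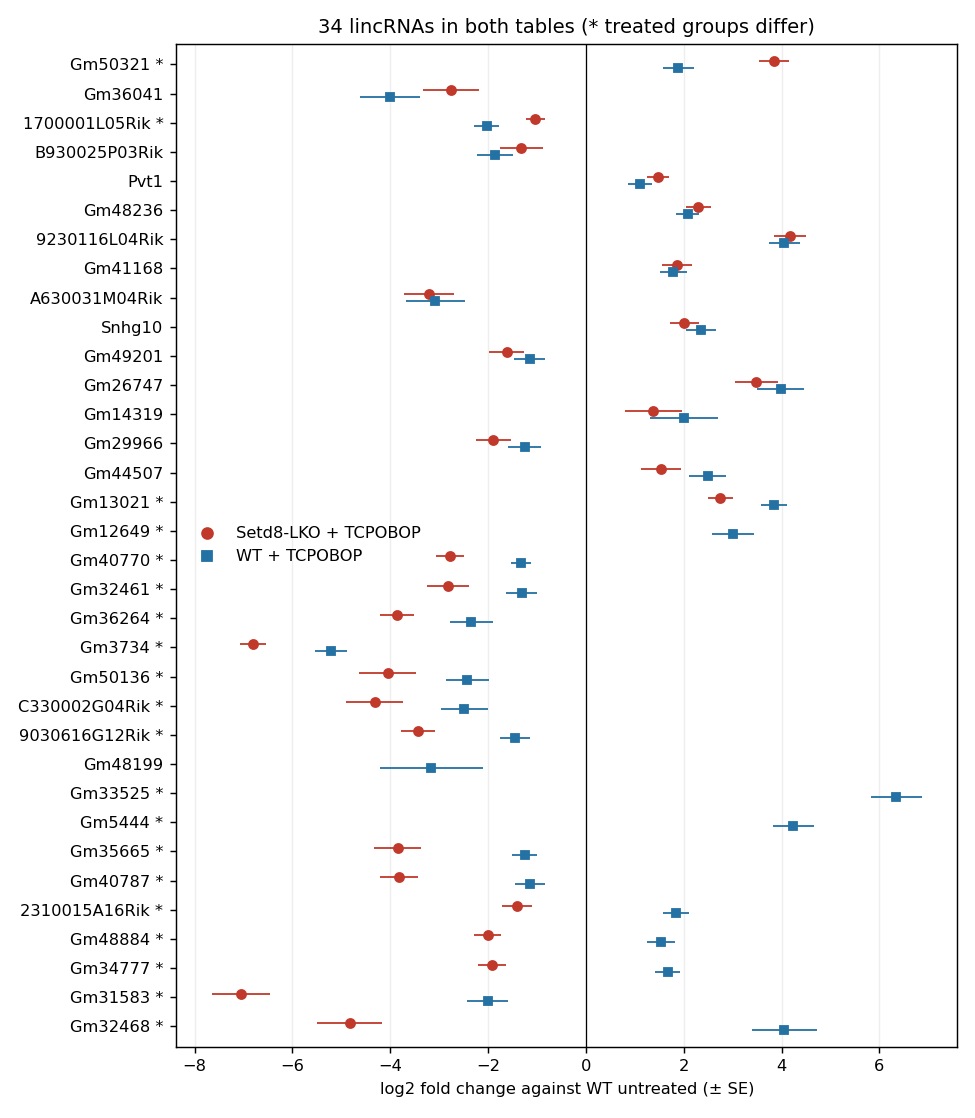
Log2 fold change against WT untreated, with its SE, of the 34 lincRNAs in both tables; red circles are Setd8-LKO + TCPOBOP (n = 4) and blue squares WT + TCPOBOP (n = 5), which share the 5 untreated libraries, and an asterisk marks the 20 genes whose treated groups differed in the direct comparison. Gm32468, Gm34777, Gm48884 and 2310015A16Rik, among the lowest rows, lie on opposite sides of 0. Members without a red circle did not pass that fit's filter on counts per library.

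Of the chromatin assays, H3K27ac marks active promoters and enhancers, ATAC-seq open chromatin, CTCF and the cohesin subunit Smc3 loop anchors, Lamin A/C contact with the nuclear lamina, and H4K20me3 silent chromatin. A peak was counted within 1000 bp of the gene start, and an island where it covered the start. Where another gene lies in that window, a peak cannot be assigned to the lincRNA alone. Each group has 1 list per assay, so the counts have no replicate error and no test, and the lists differ in size: CTCF has 5838 peaks in WT untreated and 20905 in Setd8-LKO + TCPOBOP, and Smc3 13045 and 21615.

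Of the 217 lincRNA starts, 93 had an H3K27ac peak in the WT untreated list and 103 in the Setd8-LKO + TCPOBOP list, or 42.9% and 47.5%. The same shares were 55.6% and 59% over all listed genes, and 8.38% and 9.45% over the annotated lincRNA genes that are not listed. ATAC peaks lay at 85 and 78 starts (39.2% and 35.9%), close to the 38.1% and 32.3% of all listed genes and above the 8.31% and 7.07% of lincRNAs not listed. For 94 of the 217, neither H3K27ac nor ATAC had a peak at the start in any list, and these were 57 of the 104 members higher and 36 of the 104 lower in Setd8-LKO + TCPOBOP.

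H3K27ac differed between members by direction, as it did between protein-coding genes. Among the 104 members higher in Setd8-LKO + TCPOBOP, 27 starts had a peak in the WT untreated list and 41 in the Setd8-LKO + TCPOBOP list, with 14 in the second list only and 0 in the first only. Among the 104 lower members it was 59 and 56, with 5 in the WT untreated list only and 2 in the other only. Of the higher listed protein-coding genes 57.1% and 65.8% had a peak in the 2 lists, with 177 gained and 16 lost, and of the lower 69.3% and 66.3%, with 23 gained and 57 lost. Where both lists had a peak, the median log2 change of fold enrichment was 0.27 over 27 higher members (18 above 0) and -0.27 over 54 lower members (15 above 0), beside 0.44 and -0.16 for other listed genes of the same direction. ATAC peaks lay at 29 and 29 of the higher starts (27.9% in either list) and at 52 and 44 of the lower (50% and 42.3%), beside 35.6% and 31.1% of higher and 51.7% and 42.7% of lower listed protein-coding genes.

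**Figure D4:**
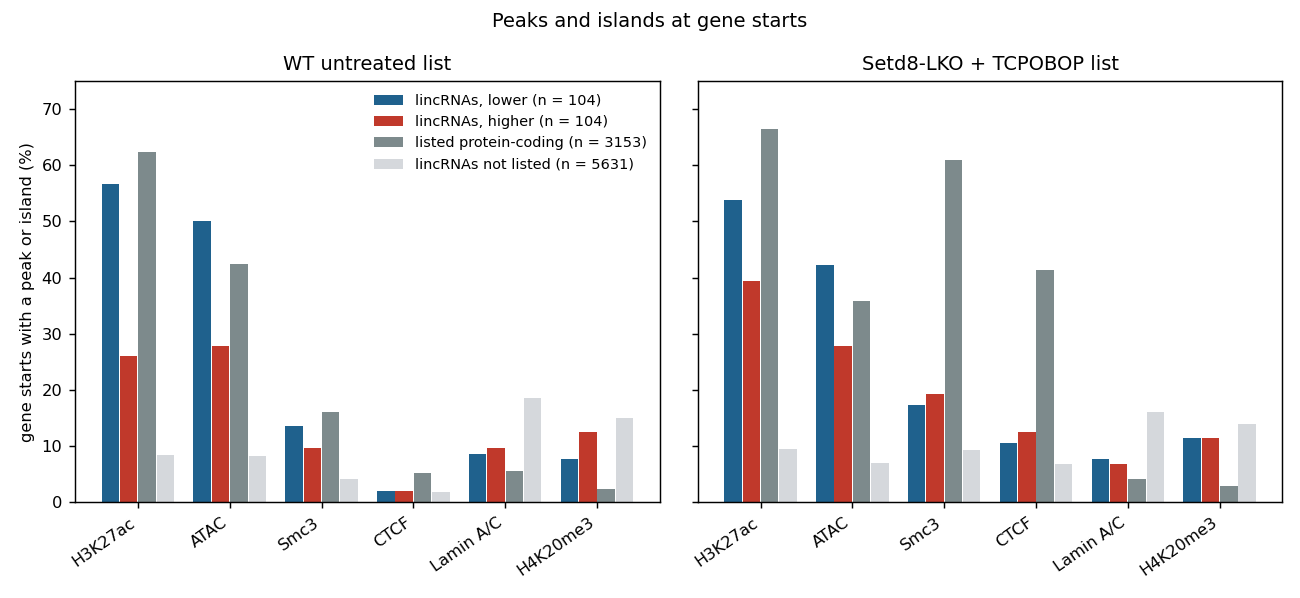
Percent of gene starts with a peak (H3K27ac, ATAC, Smc3, CTCF; within 1000 bp) or an island (Lamin A/C, H4K20me3; covering the start) in the WT untreated list (left) and the Setd8-LKO + TCPOBOP list (right), with 1 list per bar and no replicate error. H3K27ac lay at 26% and 39.4% of lincRNAs that were higher and at 56.7% and 53.8% of those lower in Setd8-LKO + TCPOBOP; lincRNAs not listed had fewer peaks and more islands.

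Single starts show the gains and losses. The H3K27ac peak that appeared only in the Setd8-LKO + TCPOBOP list had a fold enrichment of 9.17 at 9230116L04Rik, 7.62 at Gm26747, 14.9 at Gm13021 and 12.2 at Trp53cor1, and all 4 genes rose. The strongest of this kind was at Gm14319 (15.3), whose log2 fold change of 1.38 (SE 0.59) did not pass the test. Such a peak also lay at 2 members that were lower, Gm15348 (8.5) and Gm32540 (8.49). Gm12718, which fell, had an H3K27ac peak (9.0) and an ATAC peak (4.98) only in the WT untreated list, and its start lay in an H4K20me3 island only in the Setd8-LKO + TCPOBOP list. Gm35665, Gm35696 and Platr4 also had an H3K27ac peak only in the WT untreated list (6.75, 5.10 and 8.83). So did Gm36231 (11.2), which was listed as higher in WT + TCPOBOP. At Pvt1 the peak went from 24.1 to 38.3 and at Neat1 from 18.8 to 20.5.

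CTCF peaks lay at 4 lincRNA starts in the WT untreated list and at 27 in the Setd8-LKO + TCPOBOP list (1.84% and 12.4%), beside 4.64% and 35.5% of all listed genes. Smc3 peaks lay at 26 and 42 (12% and 19.4%, beside 14.6% and 52.7%). The strongest CTCF peaks present only in the second list were at Snhg18 (fold enrichment 69.9) and Snhg15 (62.0), the strongest Smc3 peak at Gm34961 (102). Snhg18 lies 148 bp from Sema5a and Gm34961 119 bp from another protein-coding gene. The peaks at Snhg18 and Gm34961 therefore cannot be assigned to the lincRNA alone. CTCF gains were found at 11 higher and 10 lower members, and that difference was not tested.

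Lamin A/C islands covered 19 and 15 lincRNA starts (8.76% and 6.91%, beside 6.13% and 4.47% of all listed genes and 18.6% and 16.1% of lincRNAs not listed). H4K20me3 islands covered 21 and 24 (9.68% and 11.1%, beside 3.57% and 4.21%, and 15% and 13.9%). The start of Gm33525 lay in islands of both kinds in both lists although its RNA rose in WT + TCPOBOP, and that of Gm50410 lay in a Lamin A/C island only in the WT untreated list. The Lamin A/C lists used here hold no island on chromosome 19, where 6 members lie.

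The starts of the lincRNAs were poorer in CG dinucleotides than those of other listed genes. Their median was 5 in 300 bases, beside 10 for all listed genes, 13 for listed protein-coding genes and 3 for lincRNAs not listed, and 17.1% had at least 15, beside 38.8% and 6.71% of all listed genes and of lincRNAs not listed. The start lay in a repeat for 21.7% of members, for 30.8% of the higher and 14.4% of the lower, beside 10.7% of all listed genes and 29% of lincRNAs not listed. On either strand, TATAAA was found in 15.7% of member windows, beside 10.9% of all listed genes and 15.5% of lincRNAs not listed. CCAAT was found in 40.6% (39% and 41.9%), AGGTCA in 19.8% (16.1% and 16.8%) and TTTGAA in 24.4% (17.2% and 21.3%).

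Of the 208 members in the Setd8-LKO + TCPOBOP table, 63 have a listed gene within 5000 bp. For 52 the nearest protein-coding gene is listed. The median distance to the nearest protein-coding gene was 21354 bp, 45 members overlap a gene on the same strand and 77 one on the opposite strand, and 111 overlap none. In the Setd8-LKO + TCPOBOP table, 25 pairs joined a lincRNA to a listed protein-coding gene within 5000 bp, and in 23 of the 25 the fitted log2 fold changes had the same sign. In 21 pairs both genes were called, all 21 with the same sign, beside 85.1% called of all listed genes tested. The same-sign share was not counted for other neighbouring listed genes. Neighbours that were not listed do not enter, so these counts do not set the lincRNAs apart. Of the other 4, Gm28592 (-1.33) and Phlda1 (-1.50) were both not called, and F830016B08Rik (-1.23), which overlaps the called Gm50237 (-1.47), was not called. All 16 overlapping pairs share bases of their gene bodies, and whether their exons overlap was not examined. Reads from shared bases cannot be told apart without a stated strand. In pairs on the same strand, such as 9230116L04Rik with Pigh, the strand would not separate them either. Both genes of each pair were listed because they changed.

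8 pairs start within 1000 bp of each other in opposite directions, and some of these, named here where it holds, also overlap. Snhg18 and Sema5a, which encodes a semaphorin, start 148 bp apart and rose by 2.35 and 2.74 on the log2 scale. Gm48236 and Ahr, the aryl hydrocarbon receptor, overlap, so reads from their shared bases cannot be told apart. These 2 genes rose by 2.30 and 1.87, and also in WT + TCPOBOP by 2.08 and 1.68. Here Gm48236 had 27, 26, 20, 37 and 19 normalized counts in WT untreated, 99, 102, 103, 116 and 124 in WT + TCPOBOP and 141, 114, 160 and 91 in Setd8-LKO + TCPOBOP, with both treated groups above the untreated one.

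Of the divergent pairs that fell, Gm26608 and Insig1, which retains SREBP proteins in the endoplasmic reticulum, start 258 bp apart and had log2 fold changes of -1.94 and -2.06. Gm12474 and Tent5c, a poly(A) polymerase, had -2.30 and -1.88, and Gm48488 and Gas1, a hedgehog co-receptor that it overlaps, had -1.90 and -2.06. The only divergent pair of opposite sign was 4930516B21Rik (-1.33, SE 0.38, not called) with Exog (1.04, SE 0.20), a mitochondrial nuclease, 113 bp apart. 1700001L05Rik (-1.03) and Arfgap3 (1.35, SE 0.36, not called), which lie 3600 bp apart on the same strand, were the other pair of opposite sign.

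Further overlapping pairs included Gm20649 and Onecut1 (HNF6, a hepatocyte transcription factor), at -2.66 and -2.61, and Gm17484 with the co-chaperone gene Bag4, at -1.49 and -1.44. Higher were Gm43091 with Por, the electron donor of cytochrome P450 enzymes (1.47 and 2.17), Gm41168 with Tnfrsf19 (1.86 and 2.25), Gm44148 with Usp18, a deconjugase induced by interferon (1.41 and 1.53), and 9230116L04Rik with Pigh, a gene of GPI anchor synthesis (4.17 and 1.52). In WT + TCPOBOP 3 pairs lay within 5000 bp, each with both genes called and of the same sign. Gm48236 with Ahr and Gm41168 with Tnfrsf19 (1.79 and 1.86) overlap, and Gm32468 lies 2588 bp from Cfap54, a cilium gene on the opposite strand (4.06 and 1.95), without overlap.

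**Figure D5:**
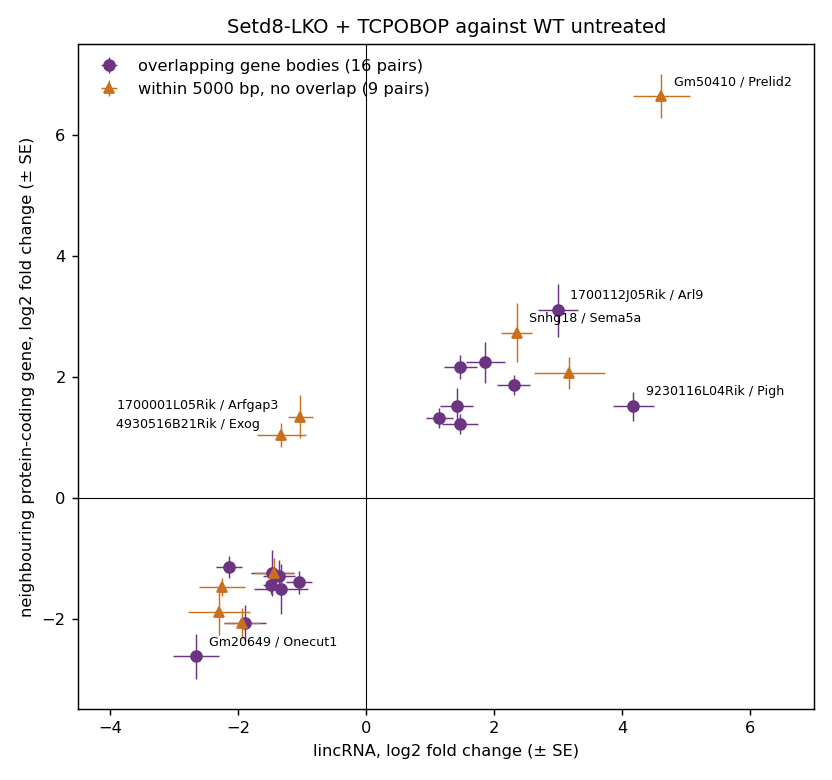
Log2 fold change in Setd8-LKO + TCPOBOP against WT untreated, with its SE, of 25 lincRNAs (horizontal) and of the listed protein-coding gene that overlaps each (circles, 16 pairs) or lies within 5000 bp (triangles, 9 pairs); n = 4 and 5 libraries. Of the 25 pairs, 23 lie in the quadrants of equal sign, and the 2 others are 1700001L05Rik with Arfgap3 and 4930516B21Rik with Exog.

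Some members are near copies of each other or of other genes, so that their reads may be split or shared. 24 members align to another gene over at least 200 bases at 95% identity or more, 11 of them to another member. The largest family is Gm42047, Gm48362, Gm47939, Gm43549, Gm47761 and Gm46349, which share stretches of 98.4% to 100% identity. Their exons are mostly repeat sequence (78% to 86% of bases, beside a median of 17.5% over the members), and each start lies in a repeat. Copies were sought among annotated transcripts only, so the part of other copies of the repeat in these counts was not tested. Gm42047 had 284, 353, 203, 399 and 593 normalized counts in WT untreated and 3426, 2741, 4320 and 3093 in Setd8-LKO + TCPOBOP (log2 fold change 3.21, SE 0.29). The groups were apart, and the other 5 had log2 fold changes of 1.49, 3.31, 3.05, 3.25 and 3.30. These 6 values are not independent of each other.

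Gm49083 and Gm50321 are 98.2% identical over 2389 bases and rose by 2.64 and 3.85 on the log2 scale. The lines below give 100 bases of each, with the differences of the second from the first in capitals, to show how few there are. The protein-coding gene Gm8113 and the antisense gene Gm47547 are further copies. Gm48795 is 98.7% identical to Me1, the malic enzyme gene, over 1159 bases and had a log2 fold change of -1.22. B020010K11Rik matches the tubulin gene Tuba1b at 98.7% over 1588 bases and Gm7125 the gene Hmgn2 at 95.3% over 279 bases, and the values of all of these are uncertain for that reason.
Gm49083, chr14:43805636-43805735, minus strand: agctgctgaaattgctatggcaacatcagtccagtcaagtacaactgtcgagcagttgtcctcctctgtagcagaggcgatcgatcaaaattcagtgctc
Gm50321, chr19:9830109-9830208, minus strand: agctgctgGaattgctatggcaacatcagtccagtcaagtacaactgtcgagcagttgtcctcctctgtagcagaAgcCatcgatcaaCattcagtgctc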

How the data were processed

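Whole-liver RNA-seq was described for WT untreated (n = 5), WT + TCPOBOP (n = 5) and Setd8-LKO + TCPOBOP (n = 4) libraries. The authors passed the reads through PRINSEQ, HISAT2 (genome mm10, GRCm38) and metaseqR, which counted and normalized them; the deposited tables hold raw counts per gene and library, and only selected genes. The deposited normalized counts are the raw counts times 1 factor per library, rounded (a score rather than counts). The GC percent column deposited by the authors was not needed. The library kit is named without its strand setting. The deposited peak lists give the fold enrichment (a ratio) and the −log10 p that the authors obtained with MACS2 2.2.7.1, and the deposited island lists give a SICER score; there is 1 list per group, and how replicates were combined is not given in the sources used here. Untreated controls are labelled untreated, while the study's methods name a vehicle. Columns of the authors' fold changes, p-values and FDR were not used, nor were 114 further per-sample columns.

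The raw counts were tested with edgeR 4.0.16 (glmQLFit and glmQLFTest in R 4.3.3, filterByExpr with a minimum count of 10, the authors' factors as offsets), within each table, on the 2 groups it holds and without covariates. Benjamini-Hochberg adjustment ran over the 55450 genes of GENCODE M21, with genes not listed taken as not called, and calls required both an adjusted p under 0.05 and a log2 fold change of 1 or more in size. The filter left out 20 of 208 members of the Setd8-LKO table and 3 of 43 of the other, which are given by their counts. The column sums (5734065 to 12780869 raw counts in the Setd8-LKO table, 1389901 to 3706582 in the other) cover listed genes only and are not sequencing depths. Ratios of groups with 1 to 3 reads have exact counting intervals at 95%, and a group at 0 was set to a floor of 3 counts over the group; both cover counting error only. The study's methods call the RNA-seq libraries biological replicates, a term they use for mice, so p-values measure the spread between these animals. Exact two-sided permutation tests of single genes cannot go below p = 0.00794 with 5 against 4 or 5 libraries.

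Starts were compared with peaks within 1000 bp and with islands that cover them. Sequence copies were found with BLAST 2.17.0 and sequences read with pysam 0.24.0. Of the 217 members, 217 had their ID in GENCODE M21 and 108 matched the RefSeq promoter table by symbol. Named were the 8 largest rises and falls per contrast among called members whose groups do not overlap, the 8 highest levels per kilobase, members in both tables, members of fixed lists of noncoding RNAs, up to 4 members per assay with a peak or island in 1 list only, and up to 8 by fold change beside a listed gene. Other members, namely those named for copies, run differences, divergent starts or missing fits, were chosen after their values were seen. The members and the lists were chosen with earlier results of these data known.

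On simulated counts for the Setd8-LKO comparison (3649 genes tested), edgeR found 90 of 96 genes changed by 2 on the log2 scale. It found 101 of 104 changed by 3, with 1 false call. For WT + TCPOBOP (673 genes) it found 105 of 108 and 90 of 92, with 3 false calls. The simulated p-values were adjusted over those 3649 or 673 genes only, not over 55450. These figures therefore describe a laxer test than the main one. Alternatives were DESeq2 1.42.0 size factors, TMM, the DESeq2 test, no filter, adjustment over listed genes, a replicate block, a run term and leaving out each library; for starts, windows of 250 and 5000 bp, any annotated transcript start, peaks with −log10 p of at least 20 and islands over at least 50% of the gene. Libraries with the same number did not deviate together (correlations of deviations from -0.252 to 0.116 in the Setd8-LKO table and -0.467 to 0.176 in the other), so the numbers were not taken to pair samples. 1 neighbouring gene and some start sequences are not reported here.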

Additional observations from a re-analysis of the deposited data

Results flagged for a closer look

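The log2 fold change against WT untreated differed between the treated groups, by the direct test in edgeR over 506 genes, for 20 of the 34 lincRNAs in both tables. Given as Setd8-LKO + TCPOBOP minus WT + TCPOBOP on the log2 scale, the 4 lincRNAs that went opposite ways differed by -8.88 (Gm32468), -3.59 (Gm34777), -3.54 (Gm48884) and -3.25 (2310015A16Rik). LincRNAs that were lower in both groups by mean, and further down in Setd8-LKO + TCPOBOP, differed by -5.04 (Gm31583), -2.67 (Gm40787), -2.60 (Gm35665), -1.98 (9030616G12Rik), -1.82 (C330002G04Rik), -1.63 (Gm50136), -1.59 (Gm3734), -1.52 (Gm36264), -1.50 (Gm32461) and -1.44 (Gm40770). Those that were higher in both by mean, and less so in Setd8-LKO + TCPOBOP, differed by -2.50 (Gm5444), -2.44 (Gm33525), -1.24 (Gm12649) and -1.09 (Gm13021). The remaining 2 were 1700001L05Rik (1.00), which fell less in Setd8-LKO + TCPOBOP, and Gm50321 (1.95), which rose more there. In the fit with a run term all 20 stayed past the test. The direct comparison was not refitted with DESeq2 or TMM scaling, so how these calls depend on scaling was not tested.

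Of 102 sets of normalized counts checked for a library apart from its group, 10 were marked. The cutoff marks about 1 in 20 sets of normally distributed values, which these counts are not. A single read among zeros is always marked, and some genes were chosen after their run difference had been seen. No excess over chance is therefore read from the 10. Setd8-LKO + TCPOBOP library 4, the only one of run A, stood apart for D130009I18Rik (8771), Gm19951 (2818), Gm26820 (117) and Gm5420 (84). Library 3 of that group was highest for Gm28078 (265). Among WT untreated libraries, library 4 stood apart for C730036E19Rik (992) and library 1 for Gm27000 (15), Gm28078 (1) and Gm33525 (1), and in WT + TCPOBOP library 1 stood apart for Snhg10 (57).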

How the results depend on the processing

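All 152 lincRNAs called in Setd8-LKO + TCPOBOP kept their direction under every alternative fit, and so did 29 of the 30 called in WT + TCPOBOP; the exception, 4930404H11Rik (log2 fold change 1.21), had -0.05 under TMM. Scaling moved the split of the calls. With DESeq2 size factors 42 instead of 77 lincRNAs were called higher in Setd8-LKO + TCPOBOP, and 117 of the 152 calls remained; in WT + TCPOBOP both DESeq2 factors and TMM called 5 higher instead of 20 and 17 lower instead of 10, with 15 of 30 calls remaining in each. The fold change of Pvt1 in WT + TCPOBOP turned from 1.11 to -0.05 with DESeq2 factors and to -0.14 with TMM. Adjustment over the listed genes alone called 17 lower in WT + TCPOBOP. The replicate block, which takes libraries of 1 number as pairs, called 111 in Setd8-LKO + TCPOBOP and 11 in WT + TCPOBOP (9 higher, 2 lower), with fewer degrees of freedom; not every library deviated most with its own number. A run term called 139 and 32. Leaving out each library in turn called 133 to 151 in Setd8-LKO + TCPOBOP (69 to 80 higher, 64 to 74 lower) and 22 to 29 in WT + TCPOBOP (17 to 19 higher, 4 to 10 lower). The cause of these shifts was not tested.

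Among named lincRNAs, leaving out 1 library left 841 values on the same side of the test, took 74 below it, lifted 10 above it and turned 0; the other alternatives gave 596, 56, 40 and 2. For the treated groups compared directly, a run term left 2 higher and made 19 lower instead of 18, by adding Gm44507.

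Widening the window around starts to 5000 bp raised the starts with a peak from 4 to 12 (CTCF) and 26 to 40 (Smc3), 93 to 109 (H3K27ac) and 85 to 115 (ATAC) in the WT untreated lists, and from 42 to 60 (Smc3) and 78 to 116 (ATAC) in the Setd8-LKO + TCPOBOP lists. Narrowing it to 250 bp left 64 and 57 starts with an ATAC peak. Depth could not be judged, since the tables hold listed genes only; a gene near 0 in a group may be below what these libraries could count.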
